A study of Mus musculus with 8 samples.

Results

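The protocadherins are the largest subgroup of the cadherin adhesion proteins, and 69 of their genes were measured here among 34536 gene symbols. They were taken by symbol. Of the 69, 57 belonged to the clustered genes (13 alpha, 22 beta and 22 gamma) and 12 to the non-clustered genes, and no other symbol in the table started with Pcdh. The cells came from mouse embryoid bodies, aggregates of differentiating pluripotent stem cells, and had been collected by flow sorting before RNA sequencing. Libraries A, C, E and G are labelled endocardial and libraries B, D, F and H endothelial, which makes 4 in each group, and the labels name no genotype or treatment. The endocardium is the endothelium that lines the heart. Sort markers, stem cell line and day of culture are not stated in the labels. Neither is it stated that libraries came from separate cultures, and every p-value therefore reflects the spread among these 8 libraries alone, which may be technical.

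Protocadherins carry a row of extracellular cadherin repeats, by which many of them bind like molecules on the neighbouring cell. In the clustered genes, each alpha and gamma transcript joins a variable first exon, chosen from many that each have their own promoter, to a set of constant exons shared by the whole cluster, while each beta gene is a complete transcript of its own. In neurons, promoter choice gives single cells different sets of these proteins, apart from the C-type variable exons at the end of the alpha and gamma clusters, which are used more uniformly. Non-clustered protocadherins are separate genes that act in tissue patterning, cell sorting and migration, and among them Pcdh12, also called VE-cadherin-2, is known from endothelial cells, and Pcdh8, also called paraxial protocadherin, from paraxial mesoderm and the nervous system.

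The total of estimated counts per library ran from 6677667 to 11369363. A count of 0 allowed a level of up to 0.267 to 0.438 CPM (counts scaled to a common library size, the value of 3 counts in the deepest and the shallowest library), which covers counting error only. Of 17 marker genes of endothelium in general, 14 were called higher in the endocardial libraries by edgeR and none lower, at an adjusted p below 0.05. Of all tested genes 1.42% were called higher. The summed marker levels were 1610 to 2033 CPM in the endocardial against 482 to 932 CPM in the endothelial libraries. Endothelial markers were thus present in both groups and none was at 0 in all libraries. All 13 pluripotency markers were also detected, with sums of 39.0 to 158.5 CPM against 163 to 1133 CPM, F being highest.

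Of the 69 protocadherins, 45 had enough counts to be tested, 36 clustered and 9 non-clustered. In edgeR's quasi-likelihood test with Benjamini-Hochberg adjustment over all 13817 tested genes, 2 of the 9 non-clustered genes were called at an adjusted p below 0.05, against 2.58% of all tested genes. Pcdh12 was higher in the endocardial libraries, where 1.42% of all tested genes were called higher, and Pcdh8 was lower, where 1.16% were. Of the 36 clustered genes, 0 were called by edgeR, with 1 at an unadjusted p under 0.05, where 14.6% of all tested genes were. DESeq2 also called 0 of the clustered genes and limma called 1, Pcdhga1. In CPM, the groups did not overlap in the same 2 non-clustered genes and overlapped in all 36 clustered ones, while 9.76% of all tested genes did not overlap.

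**Figure D1:**
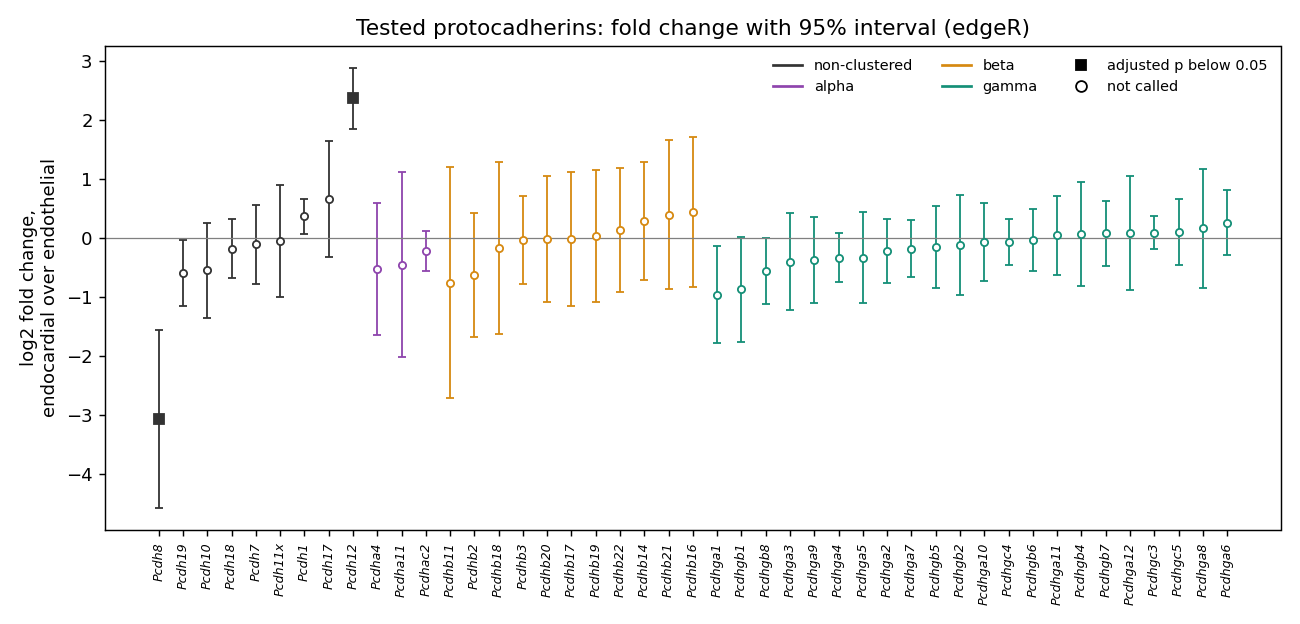
Log2 fold change (endocardial over endothelial, vertical axis) of the 45 tested protocadherins by class, with 95% intervals from edgeR; filled squares have an adjusted p below 0.05. Pcdh8 (-3.05) and Pcdh12 (2.36) lie apart from the others, and the clustered genes lie between -0.96 and 0.45.

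Where the proximal promoter can be shown, it gives the sequence context of these genes. In all, 10 RefSeq promoters (GRCm38.p6) were matched to 9 of the 69 genes, Pcdh9 having overlapping ones. Promoters on the chromosome of the clustered genes, which also carries Pcdh1 and Pcdh12, were not among those searched. All 9 were therefore bound to be non-clustered, and Pcdh12, the gene that was called higher, could not be included. Pcdh11x had no entry. The 250 bases before the start are printed for Pcdh8, the gene that was called lower (chr14:79771313-79771562, minus strand), and for comparison for Pcdh17 (chr14:84443313-84443562, plus strand) and Pcdh18 (chr3:49757317-49757566, minus strand), which belong to the same delta-2 subfamily and were not called. Capitals mark 3 motifs, searched on both strands except the first, which were chosen after the sequences were seen: TATAAA, the TATA box, ATTGG or CCAAT, the CCAAT box, and ATTTGCAT or ATGCAAAT, the octamer bound by POU factors.
Pcdh8: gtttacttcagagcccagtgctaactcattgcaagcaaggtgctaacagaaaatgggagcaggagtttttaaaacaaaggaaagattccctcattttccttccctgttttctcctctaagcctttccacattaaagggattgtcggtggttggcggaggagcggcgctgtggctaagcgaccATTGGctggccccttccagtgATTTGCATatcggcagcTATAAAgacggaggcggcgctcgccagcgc
Pcdh17: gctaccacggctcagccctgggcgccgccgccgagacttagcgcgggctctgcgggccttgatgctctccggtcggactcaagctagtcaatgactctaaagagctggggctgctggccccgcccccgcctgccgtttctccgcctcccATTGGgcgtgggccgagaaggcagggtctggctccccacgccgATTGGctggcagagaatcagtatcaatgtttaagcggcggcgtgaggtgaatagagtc
Pcdh18: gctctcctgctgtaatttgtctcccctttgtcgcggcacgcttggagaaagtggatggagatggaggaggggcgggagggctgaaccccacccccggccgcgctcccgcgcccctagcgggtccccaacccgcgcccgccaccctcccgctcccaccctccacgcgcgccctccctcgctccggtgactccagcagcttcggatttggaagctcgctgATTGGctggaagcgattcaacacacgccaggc

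A CCAAT box stood in the promoters of 8 of the 9 genes, all but Pcdh7, and in 33.9% of all 32851 RefSeq promoter windows of the same length. In Pcdh8 it began 68 bases before the start, in Pcdh18 32 bases and in Pcdh17 101 and 58 bases. Pcdh8 alone of the 9 had the octamer, 47 bases before its start, which is found in 1.60% of all windows, and it shared the TATA box (7.59% of all windows) with Pcdh15 only. The Pcdh15 window lies inside the gene. For Pcdh10, Pcdh15 and Pcdh20, a stretch just after the RefSeq start was not found in the longest coding transcript, so these windows may belong to other transcripts. CG pairs were fewer in Pcdh8 (11) than in Pcdh17 (21) and Pcdh18 (23), where the median of all windows was 6. These matches describe the letters of the window and were not tested as binding sites.

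Pcdh12 codes for an endothelial protocadherin (GRCm38 chromosome 18, 38267089 to 38284402, minus strand, protein-coding). Its level was 21.8 CPM in A, 16.5 in C, 19.4 in E and 14.0 in G, against 4.28 in B, 2.77 in D, 4.07 in F and 2.63 in H. All endocardial libraries lay above all endothelial ones. The means were 17.9 ± 3.40 and 3.44 ± 0.856 CPM (SD, n = 4 each), or 3.23 against 0.620 CPM per kb of transcript. The log2 fold change was 2.36 by edgeR (SE 0.23, adjusted p = 0.000571), which is 5.15-fold. Pcdh12 was called in all 8 fits that left out 1 library, with adjusted p-values of 0.00129 to 0.00521. Of the 17 pan-endothelial markers 14 rose with it, beside 1.42% of all tested genes called higher. The list had a median log2 fold change of 1.89. Tek (log2 fold change 0.15, SE 0.47), Emcn (2.58, SE 0.62, adjusted p = 0.0629) and Robo4 (2.16, SE 0.61, adjusted p = 0.111) did not pass. The summed levels are given above, and the part of these markers in the result was not tested. In bulk samples such as these, more cells that express a gene and more RNA per cell cannot be told apart.

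Pcdh8 codes for a delta-2 protocadherin of paraxial mesoderm and neural tissue that takes part in cell sorting and in the uptake of N-cadherin (chromosome 14, 79766775 to 79771312, minus strand, protein-coding). Its level was 1.42 CPM in A, 2.62 in C, 3.44 in E and 0.749 in G, against 10.9 in B, 21.6 in D, 33.6 in F and 3.71 in H. The endothelial libraries were all higher, but H exceeded E by a small margin and F stood highest. The means were 2.06 ± 1.20 and 17.4 ± 13.0 CPM (SD, n = 4 each), or 0.514 against 4.36 CPM per kb, and edgeR's log2 fold change was -3.05 (SE 0.67, adjusted p = 0.0486). The call was near the threshold: it was lost without A, C, D, E, F or G (adjusted p = 0.0935 to 0.139) and held without B (0.0461) or H (0.0167), and it was lost when all genes with a count were tested (0.114). The fold change stayed between -3.42 and -2.54 in all of these fits.

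Some markers of other tissues were lower together with Pcdh8. Among 17 tested neural markers 7 fell in the endocardial group by edgeR, beside 1.16% of all tested genes called lower. Of the 17 log2 fold changes 16 were negative, with a median of -1.83. The summed levels were 228 to 336 CPM against 330 to 514 CPM. Nes (means of 149 and 155 CPM) and Ncam1 (82.8 and 97.2 CPM), neither of them called, had the highest mean levels in these sums. H, which had the lowest Pcdh8 of its group, also had the lowest neural sum of its group, at 330 CPM. Of 13 pluripotency markers 2 were called lower by edgeR, 8 by DESeq2 and 11 by limma, which called 356, 860 and 975 of all 13817 tested genes. All 13 log2 fold changes were negative, with a median of -2.99. By edgeR 12 of the 13 had an unadjusted p under 0.05, as did 14.6% of all tested genes. F, with the most Pcdh8, had the highest pluripotency sum, while H, at 324 CPM, was second. The paraxial mesoderm markers were low, with 6 of 12 tested and only Dll1, a Notch ligand, called lower, and summed levels of 19.2 to 30.3 CPM against 28.5 to 50.3 CPM. The 6 tested genes of that list had 3 positive and 3 negative log2 fold changes. Among the defining transcription factors, Tbx6 had a log2 fold change of 0.05 (SE 0.39), and Msgn1 had counts of 0 in all endocardial libraries and of 3, 1, 2 and 0 in B, D, F and H. Foxc2 was at 3.61 to 5.36 CPM against 1.15 to 3.59 CPM (log2 fold change 0.84, SE 0.35, adjusted p = 0.294 by edgeR). Dll3 was at 2.07 to 3.56 CPM against 3.59 to 8.87 CPM (-1.10, SE 0.34, adjusted p = 0.140 by edgeR). No list was at 0 throughout, and the part of these cell types in the result was not tested.

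**Figure D2:**
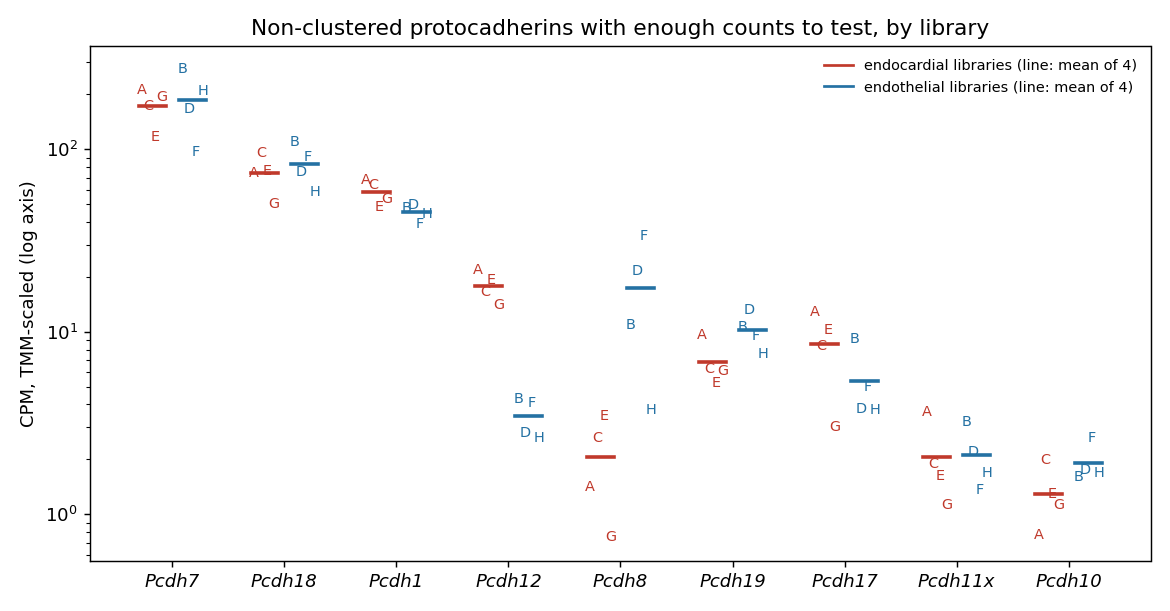
Level in CPM (log axis) of the 9 tested non-clustered protocadherins, with 1 letter per library and a line at the mean of 4. Pcdh12 and Pcdh8 are the genes whose groups do not overlap, at 14.0 to 21.8 against 2.63 to 4.28 CPM and 0.749 to 3.44 against 3.71 to 33.6 CPM.

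Libraries with neighbouring letters deviated together from their group means over all tested genes (correlations of 0.295 to 0.579), although no label pairs them. Their counts were not always the closest, as E differed more from F (chi-square per degree of freedom 52.4) than from C (21.4). The ratio of Pcdh12 within such neighbours was 5.10 (A over B), 5.96 (C over D), 4.76 (E over F) and 5.31 (G over H). For Pcdh8 the endothelial library exceeded its endocardial neighbour 7.66-fold (B over A), 8.26-fold (D over C), 9.76-fold (F over E) and 4.95-fold (H over G). The spread of Pcdh8 inside each group, 4.60-fold among the endocardial and 9.06-fold among the endothelial libraries, was thus larger than the spread of these ratios. With neighbouring letters as a replicate block in edgeR, Pcdh8 had an adjusted p of 0.000213 and Pcdh12 of 0.000184. That fit called 1204 of all 13817 tested genes, beside 356 without the block.

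The 3 most abundant non-clustered genes were not called by edgeR without a block. Pcdh7, Pcdh18 and Pcdh1 made up 79.4% to 93.4% of the non-clustered counts of a library. Pcdh7, a delta-1 protocadherin, ran from 117 to 212 CPM in endocardial and from 96.2 to 275 CPM in endothelial libraries, with the lowest values in E and F and the highest in A and B. Its log2 fold change was -0.11 (95% interval -0.77 to 0.56, adjusted p = 0.923). Pcdh18, a delta-2 member that binds the adaptor Dab1, had means of 73.8 ± 18.5 and 83.4 ± 21.5 CPM (SD, n = 4 each), a log2 fold change of -0.18 (95% interval -0.67 to 0.32). Both intervals included 0.

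Pcdh1, a delta-1 member of epithelia and endothelium, was at 67.7 CPM in A, 64.1 in C, 48.5 in E and 53.6 in G, against 47.8 in B, 49.4 in D, 39.2 in F and 44.4 in H. The groups overlapped only through E and D, and the log2 fold change of 0.37 (SE 0.13) did not pass the adjustment (adjusted p = 0.209, unadjusted 0.0187). It was called with neighbouring letters as a replicate block (adjusted p = 0.0391). That fit called 1204 of all 13817 tested genes, where the fit without a block called 356. Every endocardial library was 1.21 to 1.42 times its neighbour in Pcdh1. Pcdh19, a delta-2 member and partner of N-cadherin, was at 5.27 to 9.55 CPM against 7.53 to 13.1 CPM, a difference of -0.58 on the log2 scale (SE 0.25, adjusted p = 0.314). Limma with sample weights called it lower (adjusted p = 0.0468).

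The remaining non-clustered genes were low. Pcdh17 ran from 2.99 to 12.9 CPM against 3.71 to 9.09 CPM (log2 fold change 0.66, SE 0.44), A being highest and G lowest of all. Pcdh10 had a log2 fold change of -0.55 (SE 0.36) and Pcdh11x of -0.05 (SE 0.42), both at under 4 CPM in every library. Pcdh9, Pcdh15 and Pcdh20 were too low to test. Pcdh20 had counts of 1, 1, 0 and 0 in A, C, E and G and of 3, 2, 7 and 5 in B, D, F and H. When genes with any count were tested, it had an unadjusted p of 0.00915 and an adjusted p of 0.188. Pcdh15, a part of the hair-cell tip link, had at most 6 counts in a library.

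The clustered genes lie in 1 stretch of chromosome 18 (GRCm38), with alpha at 36930184 to 37187661, beta at 37264938 to 37524479 and gamma at 37661793 to 37841873. How reads can be told apart differs between the clusters, as measured on the longest coding transcript of each gene in GENCODE M21. In the alpha genes the last 2860 to 2866 bases recurred in another alpha gene, and in the gamma genes the last 2116 to 2130 bases in another gamma gene, which are the constant exons. Of all windows of 31 bases, a median of 64.1% in alpha and 47.5% in gamma genes recurred in another gene, against 11.8% in beta and 0% in non-clustered genes. Salmon divides such reads by a model, so single alpha and gamma values are uncertain while the sum over a cluster depends less on the division. Pcdha4 was the extreme, with 97.8% of its windows in another gene, and the symbol Pcdha11 stands for 2 gene models. Pcdhb21 and Pcdhb22 overlap by 455 bases.

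Small alpha counts repeated within a library. In F, Pcdha2, Pcdha3, Pcdha5 and Pcdhac1 each had a count of 5, and in B, Pcdha1, Pcdha5, Pcdha6, Pcdha8 and Pcdha9 each had a count of 2. Per kb of transcript, the single dominant clustered gene was Pcdhgc3, a C-type gamma gene, at a mean of 63.2 CPM per kb over the 8 libraries. That was the highest level of all 69 genes, 3.08 times that of Pcdh7 (20.5 CPM per kb) and 14.4 times that of the next gamma gene, Pcdhgb6 (4.40). Pcdhgb6, Pcdhga11 (4.33) and Pcdhgb7 (4.08) followed each other closely.

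Pcdhgc3 was at 302 CPM in A, 330 in C, 255 in E and 337 in G, against 294 in B, 304 in D, 253 in F and 297 in H. The groups overlapped in part, with C and G above all endothelial libraries and F below all endocardial ones, and each endocardial library was 1.01 to 1.13 times its neighbour in letter. The log2 fold change of 0.09 had a 95% interval of -0.18 to 0.37 (adjusted p = 0.807), the narrowest among the clustered genes named here. Pcdhgc3 made up 45.8% to 57.8% of all clustered counts in a library. The 5 C-type genes together made up 62.8% ± 4.54 against 60.1% ± 5.04 (SD, n = 4 each, endocardial first), a difference within the spread between libraries. Within alpha the C-type gene Pcdhac2 took 63.5% to 86.0% of the counts, with a level per kb 8.16 times that of the next alpha gene, Pcdha11. Pcdhac2 had means of 12.7 ± 1.50 and 14.7 ± 1.60 CPM (SD, n = 4 each; log2 fold change -0.21, SE 0.15, adjusted p = 0.604).

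**Figure D3:**
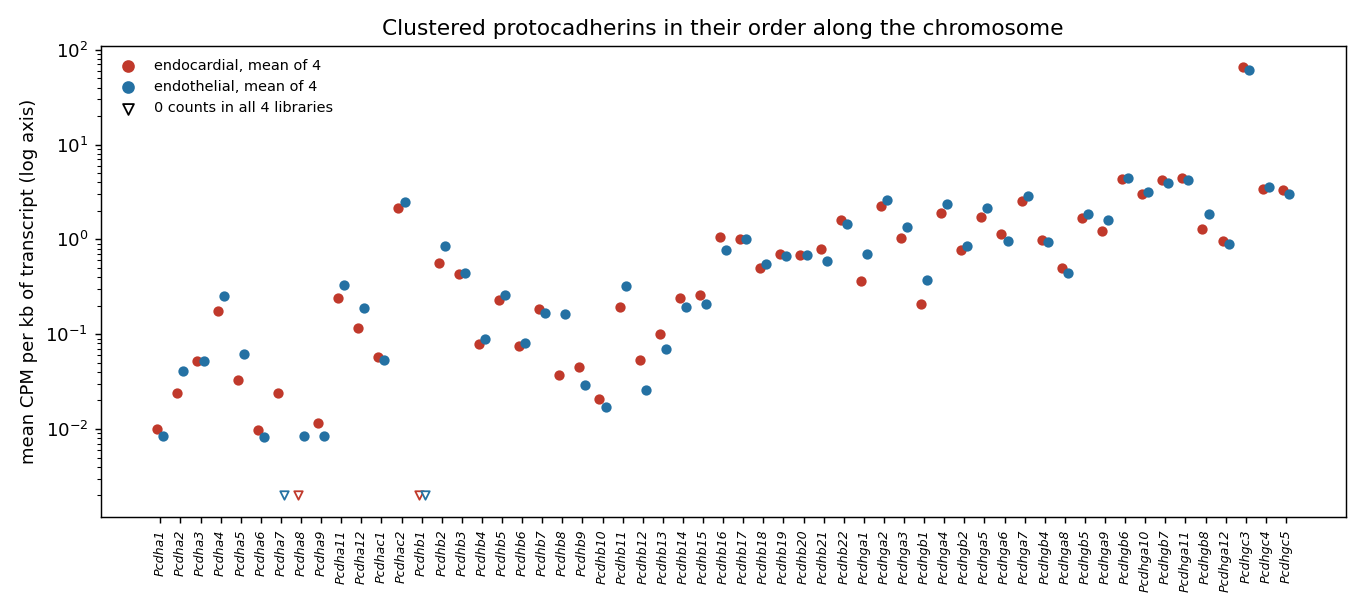
Mean level per kb of transcript (CPM per kb, log axis) of the 57 clustered protocadherins in their order along the chromosome, with 1 dot per group and an open triangle for 0 counts in all 4 libraries of a group. Pcdhgc3 stands at 63.2 CPM per kb over all libraries, and the dots of both groups lie close together for most gamma genes.

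The gamma cluster held 85.5% to 94.2% of the clustered counts, and all 22 of its genes were detected in every library. Its summed level was 524 CPM in A, 535 in C, 386 in E and 560 in G, against 550 in B, 499 in D, 415 in F and 519 in H. E and F were the lowest of their groups, and the group means were 501 ± 78.2 and 496 ± 58.1 CPM (SD, n = 4 each). Of the 22 genes 8 had a positive and 14 a negative log2 fold change, from -0.96 to 0.26. Pcdhga1, named after its values were seen because it had the smallest p of the clustered genes, was at the lower end with 0.837 to 2.58 CPM against 2.39 to 4.37 CPM. Its log2 fold change was -0.96 by edgeR (SE 0.37, adjusted p = 0.256) and -1.45 by limma (adjusted p = 0.0299). Pcdhgb6, Pcdhga11 and Pcdhgb7 had log2 fold changes of -0.03 (SE 0.24), 0.05 (SE 0.30) and 0.08 (SE 0.25).

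In the beta cluster the libraries differed more than the groups did. The summed level was 70.4 CPM in A, 46.5 in C, 39.1 in E and 21.3 in G, against 68.6 in B, 35.9 in D, 47.6 in F and 16.4 in H. A and B were the highest and G and H the lowest of their groups, a 4.29-fold range over all libraries where the gamma sum had a 1.45-fold range. The group means were 44.3 ± 20.3 and 42.1 ± 21.8 CPM (SD, n = 4 each), a difference well within the spread. Of the 11 tested beta genes, 8 had their highest level in A or B and 10 their lowest in G or H. Of the 22 gamma genes, 12 were also highest in A or B, but 2 were lowest in G or H and 12 in E. Of the 9 tested non-clustered genes, 6 were highest in A or B and 5 lowest in G or H. Of the 3 tested alpha genes, 1 was highest in A or B and 2 were lowest in G or H. Total counts were 8502565 in G and 8629704 in H, within the range given above, and the part of depth in this pattern was not tested.

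Pcdhb22, the beta gene with the most counts, showed the pattern at 19.2 CPM in A, 11.0 in C, 7.64 in E and 4.87 in G, against 17.8 in B, 8.62 in D, 6.68 in F and 5.50 in H. Its log2 fold change was 0.13 (SE 0.47, 95% interval -0.92 to 1.19). Pcdhb19 (0.03, SE 0.50), Pcdhb16 (0.45, SE 0.57) and Pcdhb17 (-0.01, SE 0.51) had larger standard errors. With neighbouring letters as a replicate block the standard errors were 0.15 for Pcdhb22, 0.27 for Pcdhb19, 0.26 for Pcdhb16 and 0.25 for Pcdhb17, and none of the 4 was called. The share of beta in the clustered counts ran from 2.95% in H to 11.5% in A. Of 22 beta genes 17 to 20 had a count in a given library, and Pcdhb1 had 0 in all 8.

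The alpha cluster had the lowest mean sum in both groups, although in H the beta sum was lower. The summed level was 18.3 CPM in A, 18.7 in C, 16.3 in E and 13.3 in G, against 21.5 in B, 20.4 in D, 18.9 in F and 19.6 in H. The endothelial sums lay above the endocardial ones by a small gap, from 18.7 in C to 18.9 CPM in F. The groups did not overlap under any of 4 scalings, TMM included. With RLE, another scaling, the highest endocardial sum was 18.75 and the lowest endothelial sum 18.79 CPM. The means were 16.7 ± 2.46 and 20.1 ± 1.12 CPM (SD, n = 4 each), a ratio of 0.830, with no test made on a sum of members. None of the 3 tested alpha genes was called, Pcdha4 having a log2 fold change of -0.52 (SE 0.50) and Pcdha11 of -0.45 (SE 0.70). Pcdha12, the fourth by level, was too low to test, with at most 27 counts in a library.

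**Figure D4:**
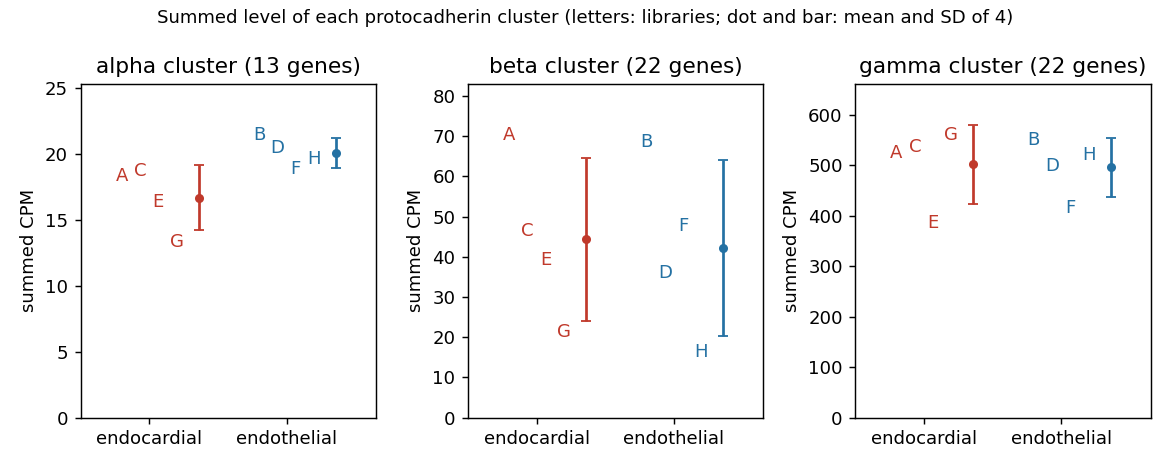
Summed level in CPM of the alpha, beta and gamma clusters in each library (letters) with the mean and SD of 4 libraries at the right of each group. The beta sums run from 16.4 to 70.4 CPM with G and H lowest, and the gamma sums from 386 to 560 CPM.

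Between the classes, the non-clustered genes had a wider range of log2 fold changes than the clustered ones, through Pcdh8 and Pcdh12 only. Log2 fold changes ran from -3.05 to 2.36 in the 9 tested non-clustered genes and from -0.96 to 0.45 in the 36 tested clustered genes. Apart from Pcdh8 and Pcdh12, the tested non-clustered genes ran from -0.58 (Pcdh19) to 0.66 (Pcdh17). The medians of all tested members were -0.11 (non-clustered) and -0.06 (clustered), beside 0.01 for all tested genes. Of the 36, 13 were positive and 23 negative, and of the 9, 3 were positive and 6 negative. The 24 untested genes had at most 63 counts over all libraries. Summed over their class, the non-clustered genes had means of 346 ± 53.4 CPM (endocardial) and 357 ± 80.5 CPM (endothelial; SD, n = 4 each), and the clustered genes 562 ± 80.7 and 558 ± 65.2 CPM. The difference between the classes was not tested.

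Of the regulators of clustered promoter choice none was called, a share near the 2.58% of all tested genes that were. The list held 20 genes for CTCF, cohesin and its loader and release factors, DNA methyltransferases and silencers such as Smchd1. EdgeR, DESeq2 and limma each called 0 of the 20, and each found 0 at an unadjusted p under 0.05, which 14.6% of all tested genes had by edgeR. The smallest p-values belonged to the cohesin subunit gene Stag2 (log2 fold change 0.19, SE 0.13), the histone methyltransferase gene Ehmt1 (-0.10, SE 0.10) and Wiz (-0.11, SE 0.12), a zinc finger partner of that enzyme.

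Among 24 tested partners of protocadherins in signalling and in the WAVE actin complex, 3 fell in the endocardial group and none rose, beside 1.16% of all tested genes called lower. DESeq2 and limma each called 4 lower and 1 higher, and over all 13817 tested genes they called 860 and 975 where edgeR called 356. Dab1, the adaptor that Pcdh18 binds, was at 2.26 to 2.72 CPM against 6.58 to 9.35 CPM (log2 fold change -1.66, SE 0.23, adjusted p = 0.00499). Cyfip2, a WAVE complex subunit, was at 13.6 to 15.7 CPM against 24.3 to 31.4 CPM (-0.88, SE 0.13, adjusted p = 0.00696). Ret, a receptor tyrosine kinase, was at 4.13 to 6.45 CPM against 8.47 to 17.1 CPM (-1.28, SE 0.25, adjusted p = 0.0291). Groups did not overlap in any of the 3. Ret lost its call without A, C, E, G, D or H (adjusted p = 0.0541 to 0.0953), and Dab1 and Cyfip2 were called in all 8.

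Of 10 tested Fat, Dchs, Celsr and calsyntenin genes, which carry cadherin repeats outside the protocadherins, 3 fell and none rose by edgeR. Beside them, 1.16% of all tested genes were called lower. DESeq2 and limma each called 7 lower, and over all 13817 tested genes they called 860 and 975 where edgeR called 356. The list median was -0.76 by edgeR, beside 0.01 for all tested genes. Clstn3, a calsyntenin of synapses, fell by 1.70 on the log2 scale (SE 0.25, adjusted p = 0.00691). The planar polarity cadherins Celsr1 and Celsr2 had log2 fold changes of -1.36 (SE 0.23, adjusted p = 0.0162) and -1.57 (SE 0.33, adjusted p = 0.0408). Celsr1 was at 17.3 to 24.3 CPM against 37.1 to 76.4 CPM and Celsr2 at 15.2 to 23.8 CPM against 32.3 to 96.2 CPM, F being highest for both. Of 8 epithelial markers 2 fell by edgeR, beside 1.16% of all tested genes called lower. DESeq2 called 6 of these markers lower and limma 5, and 6 had a negative log2 fold change by edgeR. Their sums were 543 to 896 CPM against 685 to 1250 CPM. Krt8 (means of 429 and 425 CPM) and Krt18 (267 and 247 CPM), neither of them called, had the highest mean levels in these sums. Neither the part of the epithelial markers nor that of the neural markers in the results for these cadherin-repeat genes was tested. Clstn3 was called in all 8 fits that left out 1 library. Celsr1 lost its call without C, E, G or D (adjusted p = 0.0504 to 0.0677) and Celsr2 without A, C, E, G, D or F (adjusted p = 0.0533 to 0.124).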

How the data were processed

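RNA had been sequenced from 8 mouse libraries, 4 endocardial and 4 endothelial, grouped by their titles. Estimated counts, deposited as whole numbers per symbol, had a different total in each library. Salmon, DESeq2 and build mm10 are named per the submitters' processing notes; versions, transcript set and filters are not stated there. The counts were used as deposited, and genes were kept by filterByExpr with a minimum count of 10 and a minimum total of 15. A robust quasi-likelihood F-test without covariates was run on all 8 libraries in edgeR 4.0.16 (R 4.3.3) with TMM scaling. P-values were adjusted over 13817 genes. Standard errors were derived from each gene's F and its log2 fold change, and intervals are at 95%. CPM use TMM-scaled totals. Levels per kb use the longest coding transcript of GENCODE M21, whose assembly, GRCm38, is that of mm10. The fit was tested on simulated data.

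Members and lists were chosen with earlier results of these data known. Named were all non-clustered genes with a count, the 4 most abundant of each cluster, called members, and called genes and the 3 smallest p-values of each of 3 lists of related genes. Other marker lists, with edgeR's calls, were endocardial (4 of 8 tested higher, 0 lower), epithelial (0 of 8 higher, 2 lower), mesenchymal and mural (0 of 9 called), cardiomyocyte (0 of 7 called, with 7 of 7 positive) and blood (1 of 8 higher). DESeq2 and limma each called 1 of 7 cardiomyocyte genes, Tnnt2, and 3 of 8 blood genes higher, and 0 of 9 mesenchymal and mural genes; unadjusted p-values under 0.05 by edgeR numbered 3 (cardiomyocyte) and 0 (mesenchymal and mural). Alternatives were DESeq2 1.42.0, limma 3.58.1 (voom with sample weights), other scalings and filters, a stricter call threshold of 0.01, 1 surrogate variable (sva 3.50.0), each library left out, and libraries of neighbouring letters as a replicate block. No label pairs the libraries; deviations from group means correlated at 0.295 to 0.579 over genes between neighbours, and 8 of 8 libraries correlated best with their neighbour in the other group. No 2 libraries agreed within sampling noise (chi-square per degree of freedom 8.56 or more).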

Additional observations from a re-analysis of the deposited data

Results flagged for a closer look

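In 56 groups of 4 libraries formed by the named members and the class sums, 2 had a library far from the others, where chance flags about 1 in 20 groups. Pcdh10 was at 2.61 CPM in F against 1.60 to 1.75 CPM in the other endothelial libraries. Pcdhgb6 was at 26.7 CPM in B against 18.4 to 19.5 CPM in the other endothelial libraries.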

How the results depend on the processing

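Over all genes 356 were called, but 860 by DESeq2, 975 by limma, 1204 with neighbouring letters as a replicate block, 147 without libraries G and H (an alternative added after the data were seen), 104 at an adjusted p below 0.01 and 135 to 457 with each library left out. The cause was not tested. Called clustered genes numbered 1 by limma and 0 otherwise, the fits without 1 library included. Called non-clustered genes numbered 2, but 3 by limma, which added Pcdh19, 3 with the block, 1 with no filter or at 0.01, and 1 to 2 without 1 library. The block added Pcdh1 and changed no other member's call. Pcdh8 kept its direction throughout. Signs turned only for members near 0. By limma Pcdh18 had a log2 fold change of 0.10, Pcdhb17 of 0.39, Pcdhgb6 of 0.14 and Pcdhgb7 of -0.043. Pcdhb17 was at 0.18 with 1 surrogate variable and 0.028 with the replicate block, and Pcdhb19 at -0.0086 with upper-quartile scaling. Without G and H, Pcdh11x was at 0.056, Pcdhb19 at -0.046, Pcdhgb6 at 0.0052 and Pcdhgb7 at -0.011. With each library left out, Pcdh11x ran from -0.47 to 0.26, Pcdh7 from -0.34 to 0.15, Pcdhb22 from -0.32 to 0.63, Pcdhb19 from -0.33 to 0.35, Pcdhb17 from -0.35 to 0.45, Pcdhgb6 from -0.23 to 0.12, Pcdhga11 from -0.15 to 0.24 and Pcdhgb7 from -0.080 to 0.27. Median log2 fold changes of the classes and ratios of summed levels moved by less than the spread between libraries in each alternative run. Low counts limited the alpha and beta genes most, of which 21 of 35 were too low to test, and the part of depth was not tested.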
